A study of Homo sapiens with 6 samples.

Results

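The 10 BCL2 family genes described here were listed by symbol: the BH3-only genes BMF, BCL2L11, BID and BBC3, the effector genes BAX and BAK1, and the anti-apoptotic genes BCL2, BCL2L1, MCL1 and BCL2A1. Each was found through the symbol that the deposited table gives for its Ensembl identifier. All 10 had a row among 30051 counted genes, and all 10 passed the filter on low counts that kept 13341 genes for testing. The cells were MDA-MB-231, an established human cell line from a triple-negative breast cancer, of the kind the series title calls claudin-low. They were kept in DMEM/F-12 with serum and given either the solvent DMSO or the histone deacetylase inhibitor panobinostat at 50 nM, in both cases for 24 h. Each group had 3 RNA-seq libraries (DMSO replicates 1, 2 and 3, panobinostat replicates 1, 2 and 4), which the design text describes as independent repeats without saying what was repeated. This is 1 cell line at 1 dose and 1 time, and the libraries hold whole cultures.

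Proteins of the BCL2 family decide whether the outer mitochondrial membrane is opened, the step that commits a cell to the intrinsic pathway of apoptosis. The effectors BAX and BAK form the pores, the anti-apoptotic proteins BCL-2, BCL-XL, MCL-1 and A1 hold them in check, and the BH3-only proteins answer stress by binding the anti-apoptotic proteins or by activating the effectors directly. Cytochrome c and SMAC, the product of DIABLO, leave through the pores. Cytochrome c assembles the apoptosome that activates initiator caspase CASP9, and SMAC relieves the inhibitor of apoptosis proteins. In epithelial tumour cells BMF and BCL2L11 (which encodes BIM) are known as genes that HDAC inhibitors can induce. Gene counts do not separate splice forms, and several of these genes, among them BCL2L1, MCL1 and BCL2L11, have forms of different activity.

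Levels are given as CPM, counts scaled to a library total of 1000000 after TMM, which assumes that most genes do not differ between libraries. Library totals ran from 5389638 to 15106148 counts. Panobinostat replicate 4 stood apart: on the first principal component of log2 CPM, which held 87.5% of the variance, it lay at 18.3, between the DMSO libraries (−49.1 to −47.6) and panobinostat replicates 1 and 2 (62.9 and 63.9). Results are therefore given with and without it. Of the markers that should be present, VIM, CD44, FN1 and KRT18 summed to 3798 to 3812 CPM in DMSO and 3990 to 4231 CPM in panobinostat. Those that should be low (ESR1, PGR, CDH1, CLDN3, CLDN4, CLDN7) summed to 16.6 to 17.9 and 17.9 to 22.5 CPM, mostly CLDN7, and CDH1 had 1 count in DMSO and 0 in panobinostat. Of 7 leukocyte markers, 4 were analysed here and summed to 0.427 to 0.847 CPM in DMSO and 2.11 to 3.29 CPM in panobinostat, mostly CD14. Endothelial and fibroblast markers, 5 of 5 detected, summed to 24.1 to 26.2 and 63.1 to 96.1 CPM, mostly the collagen gene COL1A1. The part of these marker shifts in the results below was not tested.

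Under panobinostat BMF, BCL2L11, BAK1 and BCL2A1 rose and BID, BCL2L1 and BCL2 fell, while BAX, BBC3 and MCL1 were not called. BMF moved most, 6.38-fold upward, and the other called members changed by 1.58-fold to 1.89-fold. Calls rest on edgeR's quasi-likelihood test, with p adjusted by Benjamini-Hochberg over all tested genes and a threshold of 0.05. Such p-values measure the spread between these libraries only. The drug moved much of the transcriptome: 58.9% of tested genes were called, 30.2% higher and 28.6% lower. The members' counts, 7 of 10 called with 4 higher and 3 lower, stood close to those shares. Their median log2 fold change was −0.07, against 0.00277 for all tested genes. Only BMF among them was called with at least a 2-fold rise (10.9% of tested genes) and none with a 2-fold fall (4.66%). The groups of 9 members did not overlap, 5 with panobinostat higher and 4 lower, against 69% of all tested genes (35% higher, 34% lower). Without panobinostat replicate 4, 9 members were called (74.9% of tested genes), 5 higher (37.7%) and 4 lower (37.2%). Of these, 3 rose at least 2-fold (12.7%) and 2 fell at least 2-fold (8.94%). These are whole-culture levels, in which fewer cells carrying a transcript and less of it per cell cannot be told apart.

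**Figure D1:**
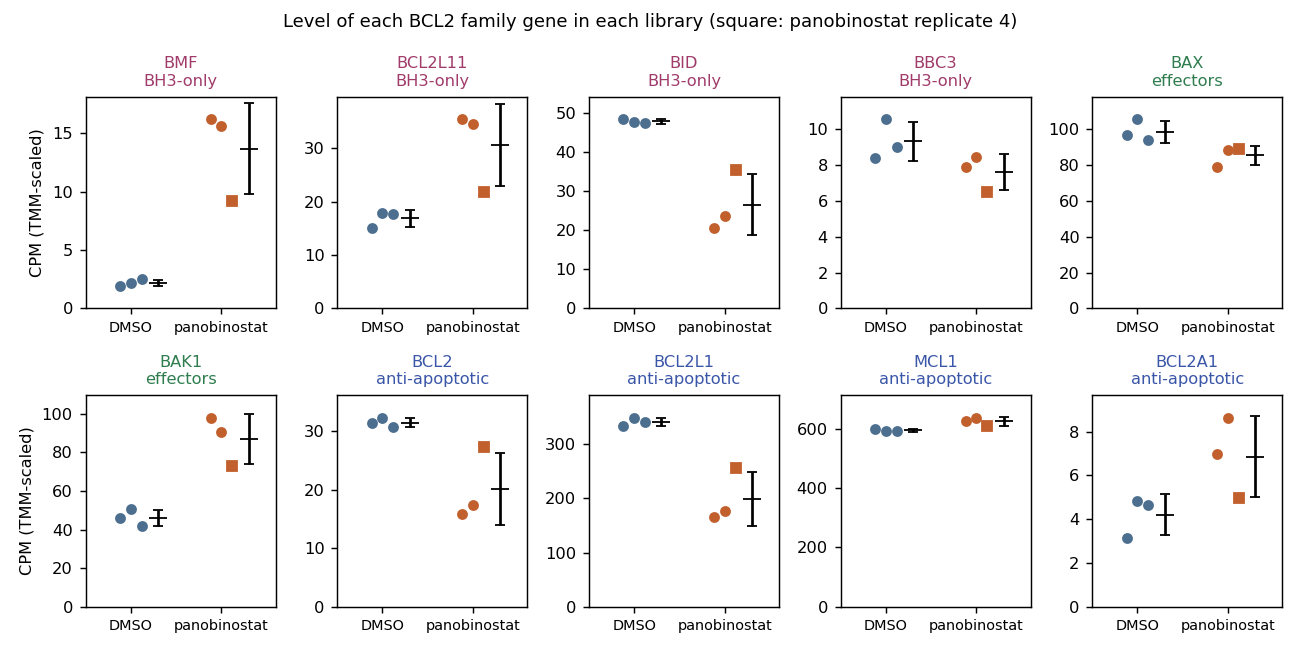
CPM of each member in each of the 6 libraries, with mean ± SD (n = 3 per group) to the right of the points and axes starting at 0. Panobinostat replicate 4, drawn as a square, lies nearer to the DMSO points than replicates 1 and 2 do in all 7 called members.

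The sequence before the annotated start is shown for the 4 members that rose and for BCL2L1, the most abundant member that fell. BID and BCL2, which also fell, are not shown. Each is the 250 bases upstream of the outermost start in RefSeq on GRCh38.p14, and 9 of the 10 members matched that table. Capitals mark the GC box GGGCGG, the TATA box TATAAA and the FOXO motif GTAAACA, searched on both strands, and no marked match overlaps another.
BMF, chr15:40108880-40109129, minus strand: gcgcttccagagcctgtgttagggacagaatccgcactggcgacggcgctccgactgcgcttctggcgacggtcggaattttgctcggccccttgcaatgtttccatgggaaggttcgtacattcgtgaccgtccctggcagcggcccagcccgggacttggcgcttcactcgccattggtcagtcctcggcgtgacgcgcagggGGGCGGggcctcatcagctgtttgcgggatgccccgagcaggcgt
BCL2L11, chr2:111120664-111120913, plus strand: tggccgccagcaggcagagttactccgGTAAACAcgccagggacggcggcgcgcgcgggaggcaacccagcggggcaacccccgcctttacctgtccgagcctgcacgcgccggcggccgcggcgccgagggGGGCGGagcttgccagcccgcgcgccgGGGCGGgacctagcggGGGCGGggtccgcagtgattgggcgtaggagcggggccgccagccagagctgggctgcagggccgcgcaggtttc
BAK1, chr6:33580277-33580526, minus strand: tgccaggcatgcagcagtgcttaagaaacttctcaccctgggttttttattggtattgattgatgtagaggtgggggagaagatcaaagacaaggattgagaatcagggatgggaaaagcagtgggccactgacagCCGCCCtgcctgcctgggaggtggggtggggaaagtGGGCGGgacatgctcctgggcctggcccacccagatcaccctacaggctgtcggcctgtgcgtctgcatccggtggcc
BCL2A1, chr15:79971197-79971446, minus strand: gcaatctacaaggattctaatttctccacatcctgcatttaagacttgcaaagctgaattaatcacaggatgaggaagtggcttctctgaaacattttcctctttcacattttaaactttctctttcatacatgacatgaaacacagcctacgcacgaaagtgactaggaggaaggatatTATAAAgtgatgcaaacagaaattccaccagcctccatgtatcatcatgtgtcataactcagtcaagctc
BCL2L1, chr20:31723964-31724213, minus strand: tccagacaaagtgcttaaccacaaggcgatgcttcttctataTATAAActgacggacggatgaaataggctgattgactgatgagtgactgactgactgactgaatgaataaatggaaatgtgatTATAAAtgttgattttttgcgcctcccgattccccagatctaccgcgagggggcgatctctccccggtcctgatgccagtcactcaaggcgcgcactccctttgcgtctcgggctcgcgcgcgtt

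The windows of BMF, BCL2L11 and BAK1 each held at least 1 GC box and 1 CCAAT box (CCAAT, searched on both strands and left in lower case), and those of BCL2A1 and BCL2L1 held neither. The BCL2L11 window was 76.8% G and C, with 34 CpG pairs, 3 GC boxes and the FOXO motif, and the BMF window 65.2%, with 26 CpG pairs and 1 GC box. The BAK1 window held only 5 CpG pairs but 2 GC boxes. The BCL2A1 window, at 38.8% G and C with 2 CpG pairs, and the BCL2L1 window, at 50.0% with 17 CpG pairs, had 1 and 2 TATA boxes. Among all 35116 windows of this length the median was 58.0% G and C and 11 CpG pairs. None of the 5 held the E-box CACGTG. A GC box was found in 42.6% of all windows, a CCAAT box in 32.0%, an E-box in 6.34%, a TATA box in 10.7% and the FOXO motif in 2.98%. Of 15 member windows, 8 held a GC box, 5 a CCAAT box, 4 an E-box, 2 a TATA box and 1 the FOXO motif. BID alone gave 5 of these windows, some of them overlapping. A site there can be counted more than once, so the windows are not independent. Windows of BID, which fell, held 0 to 4 GC boxes and 4 to 30 CpG pairs. That of BCL2, which also fell, was 70.0% G and C with 24 CpG pairs and 0 GC boxes. BAX, not called, had 1 GC box and 2 CCAAT boxes. RefSeq gives BMF a further start, whose window of 48.8% G and C had 0 CpG pairs and none of these motifs, and BCL2L1 a further start with 12 CpG pairs. The counts do not tell which start was used.

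Among the BH3-only genes, BMF rose most. Positions are those of the whole gene in RefSeq on GRCh38.p14. BMF (chr15:40087890-40108879, minus strand), whose product is held on the myosin V motor of the actin cytoskeleton in unstressed cells, stood at 1.95, 2.13 and 2.48 CPM in DMSO and at 16.2, 15.6 and 9.18 CPM in panobinostat replicates 1, 2 and 4. The groups did not overlap, and the lowest panobinostat library was still far above every DMSO library. This gave a log2 fold change of 2.67 ± 0.27 (SE, n = 3 per group, edgeR adjusted p = 0.000645), or 2.89 without panobinostat replicate 4. Of all tested genes, 2.16% had a larger positive change, and 9.47% had a lower level in DMSO. The level rests on 54 counts in DMSO and 392 in panobinostat, and the call held under all 13 alternatives. The annotation places the antisense gene BMF-AS1, not analysed here, over exons of BMF, and with the strand setting of the counting unknown its reads cannot be told apart from those of BMF.

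BCL2L11 (chr2:111120914-111168445, plus strand), the gene of BIM, which binds every anti-apoptotic member and can activate BAX and BAK, rose less. It was at 15.08, 17.9 and 17.7 CPM in DMSO and at 35.4, 34.6 and 21.8 CPM in panobinostat replicates 1, 2 and 4. Replicates 1 and 2 were about level with each other, and replicate 4 was just above the highest DMSO library. In log2 terms the change was 0.87 ± 0.19 (edgeR adjusted p = 0.00622) and 1.08 without panobinostat replicate 4, called under all 13 alternatives. Exons of the non-coding gene MIR4435-2HG, on the opposite strand, overlap those of BCL2L11, and its own change was small (0.09 ± 0.08, from 58.9 to 62.7 CPM, edgeR adjusted p = 0.351).

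BID (chr22:17734138-17774665, minus strand), whose protein is cut by the caspase of the death receptors and so joins that pathway to mitochondria, went the other way. BID stood at 48.4, 47.8 and 47.3 CPM in DMSO and at 20.5, 23.7 and 35.5 CPM in panobinostat replicates 1, 2 and 4. All panobinostat libraries were below all DMSO libraries, with replicate 4 the least reduced. The fitted log2 change was −0.87 ± 0.19 (edgeR adjusted p = 0.00574), and −1.16 without panobinostat replicate 4, with the call kept under all 13 alternatives. BBC3 (chr19:47220824-47232860, minus strand), the gene of PUMA, was the 1 member whose groups overlapped. BBC3 was at 8.39, 10.53 and 8.999 CPM in DMSO and at 7.89, 8.46 and 6.47 CPM in panobinostat. Its log2 fold change of −0.28 ± 0.17 had a 95% interval from −0.66 to 0.10 and was not called (edgeR adjusted p = 0.177, 0.170 to 0.439 over its alternatives). It is also the member in which panobinostat replicate 4 was the lowest library of all, and BBC3 moved by −0.19 without it.

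**Figure D2:**
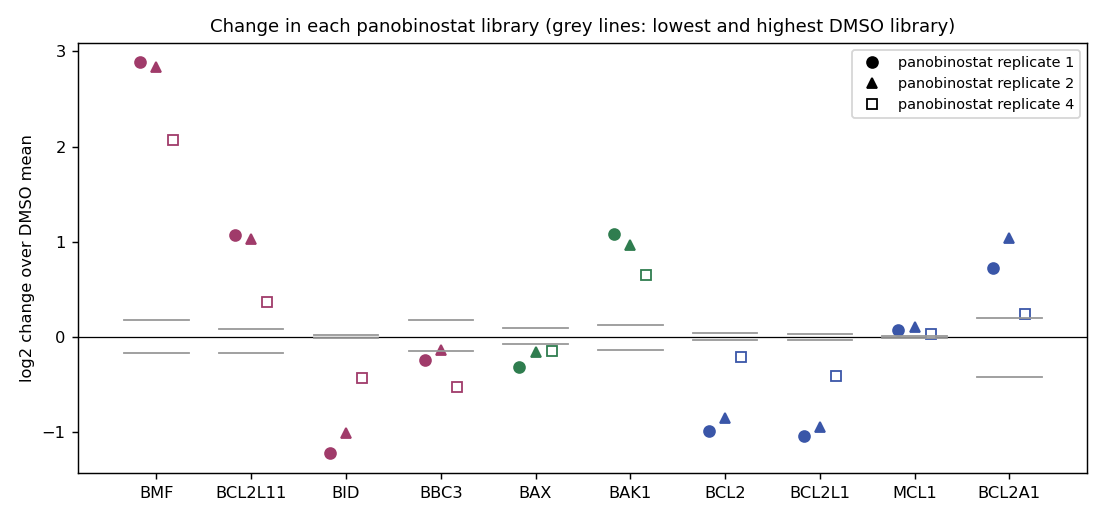
Log2 change of each panobinostat library over the DMSO mean, for each member, coloured by role (purple BH3-only, green effectors, blue anti-apoptotic); grey lines give the lowest and highest DMSO library on the same scale. In BMF the 3 libraries lie at 2.89, 2.84 and 2.07, and MCL1 lies at 0.08, 0.10 and 0.04.

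Of the effector genes, BAK1 rose and BAX was not called. BAK1 (chr6:33572552-33580276, minus strand), whose protein sits in the mitochondrial outer membrane already before stress, was at 46.0, 50.4 and 42.0 CPM in DMSO and at 97.9, 90.4 and 72.7 CPM in panobinostat replicates 1, 2 and 4. The groups were clearly separate. Its log2 fold change was 0.92 ± 0.12 (edgeR adjusted p = 0.00130), 1.04 without panobinostat replicate 4, and the call held under all 13 alternatives. A pseudogene copy, BAK1P1, was counted separately with 60 counts, 1.65% of the 3632 counts of BAK1, so reads of BAK1 could be split between them. BAX (chr19:48954875-48961798, plus strand), whose protein moves from the cytosol to mitochondria on activation, was at 96.7, 105 and 93.7 CPM in DMSO and at 79.1, 88.2 and 88.8 CPM in panobinostat. Its groups did not overlap, but the gap was small. The log2 fold change of −0.21 ± 0.08 (95% interval −0.40 to −0.02) missed the threshold (edgeR adjusted p = 0.0529). BAX was called lower without panobinostat replicate 4 (−0.26), with DESeq2 size factors, with no filter, under limma-voom quality weights and under the replicate block (adjusted p from 1.81e-06 to 0.198 over its 13 alternatives). The replicate block, too, took no part of the change from panobinostat replicate 4.

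Of the 2 abundant anti-apoptotic genes, BCL2L1 fell and MCL1 was not called. BCL2L1 (chr20:31664452-31723963, minus strand), the gene of BCL-XL, was at 333, 349 and 342 CPM in DMSO and at 166, 177 and 257 CPM in panobinostat replicates 1, 2 and 4. The groups did not overlap, and replicate 4 again lay between the others and DMSO. This gave a log2 fold change of −0.78 ± 0.15 (edgeR adjusted p = 0.00426), a level of 58.4% of DMSO, and −1.01 without panobinostat replicate 4. All 13 alternatives called it lower. The antisense gene ABALON overlaps exons of BCL2L1 and had 276 counts in all, while BCL2L1 had 8584 in DMSO and 5188 in panobinostat. How reads in shared exons were assigned is not known, so these counts do not limit the effect of the overlap.

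MCL1 (chr1:150574558-150579610, minus strand), which encodes a short-lived protein and is the most highly expressed member, was at 598, 591 and 592 CPM in DMSO and at 626, 637 and 609 CPM in panobinostat replicates 1, 2 and 4. With the TMM scaling of the main fit, the panobinostat libraries were all above the DMSO libraries, by a few percent. In log2 terms the change was 0.07 ± 0.05 with a 95% interval from −0.04 to 0.18 (edgeR adjusted p = 0.240). Over the alternatives it ran from 0.017 with no filter to 0.10 with library size only, so the small gap depends on the scaling. MCL1 was called higher without panobinostat replicate 4 (0.08), under limma-voom quality weights and under the replicate block (adjusted p from 0.00227 to 0.914 over its 13 alternatives). As for BAX, the replicate block took no part of the change from panobinostat replicate 4.

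BCL2 (chr18:63123346-63320090, minus strand), the founding gene of the family, was a minor member in these cells. BCL2 was at 31.4, 32.3 and 30.7 CPM in DMSO and at 15.9, 17.5 and 27.2 CPM in panobinostat replicates 1, 2 and 4. Replicate 4 was close to the DMSO libraries and the others were clearly lower. The fitted log2 change was −0.66 ± 0.19 (edgeR adjusted p = 0.0189), and −0.94 without panobinostat replicate 4. The call was lost without DMSO replicate 1, 2 or 3 and without panobinostat replicate 1 or 2 (edgeR adjusted p = 0.0537 to 0.0648, with 3.42e-19 to 0.0648 over all its alternatives). BCL2A1 (chr15:79960892-79971196, minus strand), an NF-kB target best known from blood cells, was at 3.14, 4.84 and 4.65 CPM in DMSO and at 6.97, 8.64 and 4.97 CPM in panobinostat. Replicate 4 was barely above the highest DMSO library. Its log2 fold change was 0.73 ± 0.26 (edgeR adjusted p = 0.0410), and 0.89 without panobinostat replicate 4. This rests on 101 and 186 counts, and the call was lost in DESeq2 (adjusted p = 0.0823) and when any 1 library other than panobinostat replicate 4 was left out (0.0615 to 0.164 in edgeR, with 5.41e-06 to 0.164 over all its alternatives). PTPRC, the pan-leukocyte marker, had 0 counts in DMSO and 2 in panobinostat.

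**Figure D3:**
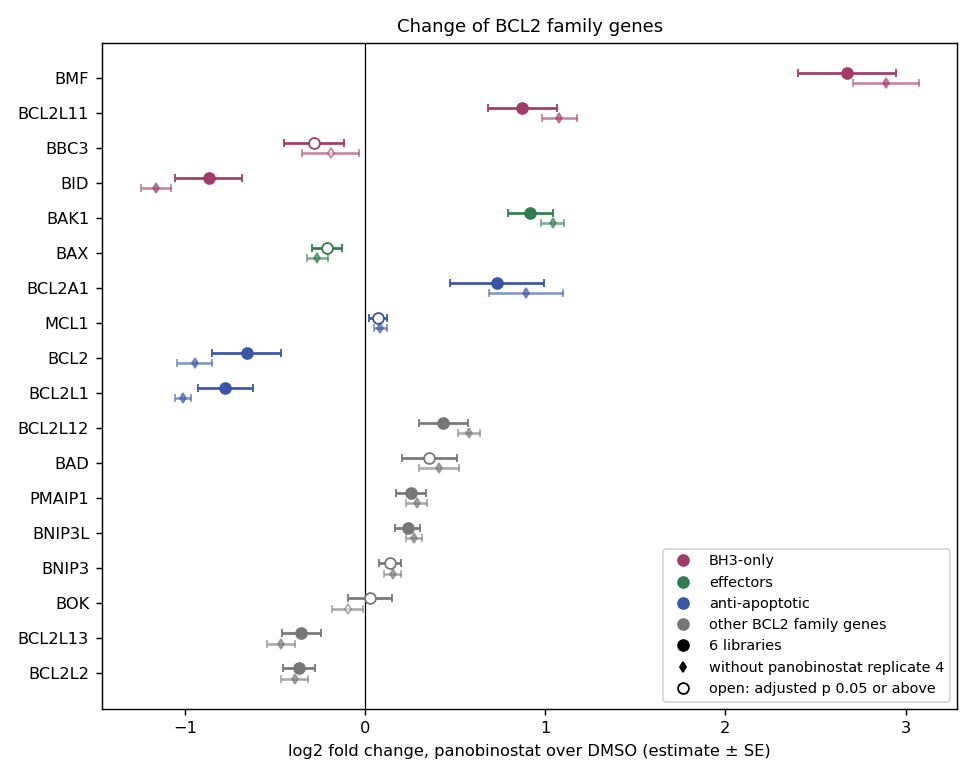
Log2 fold change ± SE of the 10 members and of the 8 other family genes tested, with all 6 libraries (circles) and without panobinostat replicate 4 (diamonds). Open symbols were not called; BAX, MCL1, BAD and BNIP3 are open in the first and filled in the second, and no member changes side of 0.

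Levels of different genes were compared after dividing CPM by the union of exon length in GENCODE release 29, as CPM per kb. This scale depends on that annotation, in which BCL2 has 11.765 kb of exon and BCL2A1 1.089 kb. In DMSO, MCL1 (136 ± 0.915 CPM per kb, SD) and BCL2L1 (103 ± 2.46) led, followed by BAX (38.1 ± 2.36), BAK1 (20.9 ± 1.88) and BID (10.8 ± 0.1199). Then came BCL2A1 (3.87 ± 0.859), BBC3 (2.93 ± 0.347), BCL2 (2.67 ± 0.0679) and BCL2L11 (2.54 ± 0.237), 4 genes whose neighbours in this order overlapped between libraries, and BMF (0.402 ± 0.0497) was last. In panobinostat MCL1 (143 ± 3.25 CPM per kb) and BCL2L1 (60.3 ± 15.0) still led. BAK1 (39.3 ± 5.85) and BAX (33.0 ± 2.11) now overlapped, in the reverse order of means. BCL2A1 (6.30 ± 1.69), BID (5.98 ± 1.78) and BCL2L11 (4.60 ± 1.14) overlapped as neighbours, and so did BMF (2.51 ± 0.714), BBC3 (2.39 ± 0.321) and BCL2 (1.72 ± 0.522).

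Within a library these levels were also set against each other, as a description with no test. MCL1 made up 56.4%, 54.6% and 55.2% of the summed level of the 4 anti-apoptotic members in DMSO and 71.3%, 69.9% and 62.3% in panobinostat replicates 1, 2 and 4. The share of BCL2L1 went from 41.4%, 42.5% and 42.0% to 24.9%, 25.6% and 34.7%. These are shares of 4 chosen genes. With BCL2L2 in the sum, added after the values were seen, MCL1 made up 53.7%, 52.2% and 52.4% in DMSO and 68.2%, 66.9% and 59.7% in panobinostat. The ratio of MCL1 to BCL2L1 was thus 1.36, 1.28 and 1.31 in DMSO and 2.87, 2.73 and 1.80 in panobinostat. Of the sum of the 4 members, BCL2A1 made up no more than 3.81% and BCL2 no more than 1.11% in any library. The BAX to BAK1 ratio was 1.80, 1.79 and 1.91 in DMSO and 0.691, 0.834 and 1.04 in panobinostat. Both ratios were clear of overlap, with panobinostat replicate 4 nearest to DMSO.

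Among the 4 BH3-only members the summed level was slightly lower while its make-up differed widely. The sum was 16.15, 17.15 and 16.59 CPM per kb in DMSO and 15.38, 16.05 and 14.99 in panobinostat replicates 1, 2 and 4, so the groups were separate by a narrow margin. The direction of the sum depends on the genes taken: with PMAIP1, BAD, BIK and HRK, BH3-only genes outside the 10 and added after the values were seen, it was 55.99, 58.16 and 58.42 CPM per kb in DMSO and 65.77, 73.56 and 60.68 in panobinostat. Most of that addition was PMAIP1. BMF went from 2.22%, 2.29% and 2.75% of the sum of the 4 members to 19.3%, 17.9% and 11.25%. BCL2L11 went from 14.03%, 15.7% and 16.0% to 34.6%, 32.3% and 21.9%, and BID from 67.4%, 62.7% and 64.2% to 30.0%, 33.2% and 53.3%. The sum of the 4 anti-apoptotic members was 243, 248 and 246 CPM per kb in DMSO and 201, 208 and 224 in panobinostat, and the effector sum 58.2, 63.5 and 55.2 against 74.8, 74.99 and 67.2. Transcript levels say nothing of protein amounts, and MCL-1 and several BH3-only proteins are known to be controlled by degradation.

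**Figure D4:**
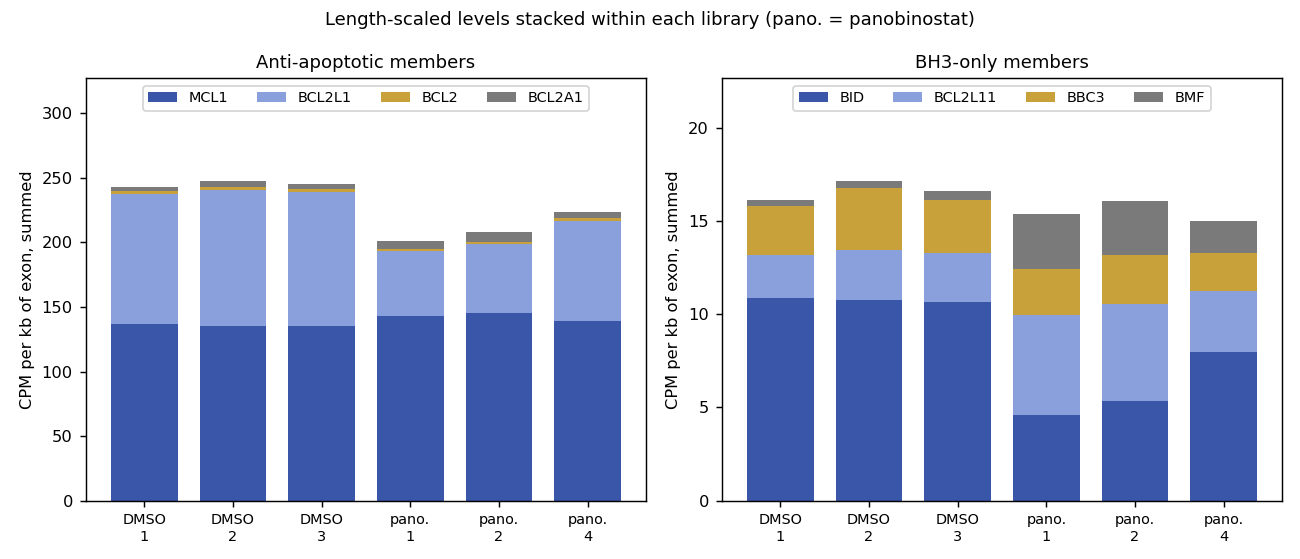
CPM per kb of exon of the anti-apoptotic (left) and BH3-only (right) members, stacked for each library from 0. The BCL2L1 segment shrinks in panobinostat while that of MCL1 does not, and BMF and BCL2L11 widen as BID narrows at a similar total of these 4 members.

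Across the 6 libraries, the member whose centred log2 CPM profile was nearest to that of BCL2L1 was BID (Euclidean distance 0.156), and for BCL2 it was BCL2L1 (0.193). BCL2L11 and BAK1 were nearest to each other (0.373). BMF had no close counterpart among the members, the nearest being BAK1 at 1.85. Of all tested genes with a symbol, ARMH4 (0.108), ARVCF (0.198) and RGL1 (0.202) had the profiles most like that of BMF. Their log2 fold changes were 2.53, 2.70 and 2.40. The difference between the groups enters this distance directly. Near genes therefore have similar fold changes largely by construction, and the large change of BMF sets it apart from the other members.

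A further 13 family genes were listed, of which 12 were analysed here, 8 were tested, 3 rose, 2 fell and 3 were not called, with a median log2 fold change of 0.19. Of all tested genes, 30.2% were called higher and 28.6% lower. BCL2L2, the gene of the anti-apoptotic BCL-W, fell from 50.5 ± 4.18 to 39.2 ± 0.998 CPM (−0.37 ± 0.09, edgeR adjusted p = 0.00991). BCL2L13, a mitophagy receptor, fell by 0.35 ± 0.11 on the log2 scale. PMAIP1, the gene of the BH3-only protein NOXA that targets MCL-1, rose slightly, from 66.2 ± 2.18 to 79.1 ± 6.72 CPM (0.26 ± 0.08, edgeR adjusted p = 0.0295). BCL2L12 (0.43 ± 0.14) and the mitophagy receptor gene BNIP3L (0.24 ± 0.07) rose. The BH3-only gene BAD (0.36 ± 0.15), BNIP3 (0.14 ± 0.06) and the effector-like BOK (0.03 ± 0.12) were not called, though BAD and BNIP3 were called higher without panobinostat replicate 4. BOK changed sign there, to −0.10. Leaving out single libraries other than panobinostat replicate 4 ended the calls of PMAIP1, BCL2L12, BCL2L13 and BNIP3L (edgeR adjusted p from 0.0519 to 0.108). Those of PMAIP1 and BNIP3L also ended with no filter (0.171 and 0.149) and in DESeq2 (0.0926 and 0.0585). Exons of BAD, BCL2L12 and BOK also overlap genes on the opposite strand. Exons of BCL2L2 overlap those of PPP1R3E on the opposite strand, which fell (−1.04 ± 0.38), and exons of BNIP3L overlap the pseudogene SDAD1P1, which rose (1.45 ± 0.27). BCL2L2 also shares exon sequence with BCL2L2-PABPN1 on its own strand, which had 23 counts in all. How reads in shared exons were assigned is not known, so this count does not limit the effect of the overlap. The BH3-only gene BIK went from 12 to 52 counts and was too low to be tested. Scaled by TMM-adjusted library totals, BIK was 4.01-fold higher (95% interval 2.11 to 8.26, counting error only). Its groups overlapped, with DMSO replicate 2 at 0.996 CPM and panobinostat replicate 4 at 0.903 CPM. DMSO replicate 2 held 7 of the 12 counts, and the ratio was 6.95 without it and 2.57 without DMSO replicate 1. BCL2L15 had 13 and 34 counts (2.42-fold, 1.25 to 5.00), HRK 1 and 6, and BCL2L14 1 and 1. BCL2L10 was not analysed here.

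Downstream of the pores, 12 genes of the apoptosome, released factors and caspases were tested: 5 rose, 1 fell and 6 were not called, with a median of 0.11. The shares over all tested genes were 30.2% higher and 28.6% lower. CASP9 rose from 9.92 ± 0.773 to 25.5 ± 4.39 CPM (1.36 ± 0.16, edgeR adjusted p = 0.000784). DIABLO (0.68 ± 0.12) and DFFA, which encodes the inhibitor and chaperone of the apoptotic nuclease (0.45 ± 0.07), rose as well. Of the 7 inhibitor of apoptosis genes, 5 were tested, 1 rose and 3 fell. BIRC3, an NF-kB target and ubiquitin ligase of TNF receptor complexes, rose from 141 ± 3.04 to 522 ± 129 CPM (1.89 ± 0.17, edgeR adjusted p = 0.000573). XIAP, the direct caspase inhibitor, fell from 118 ± 4.25 to 65.7 ± 16.6 CPM (−0.85 ± 0.16), and the mitotic survivin gene BIRC5 (−0.81 ± 0.14) and BIRC2 (−0.42 ± 0.07) fell too. Without panobinostat replicate 4 the log2 fold changes of CASP9, BIRC3 and XIAP were 1.49, 2.08 and −1.07.

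The mitochondrial membrane partners moved little: of 7 tested, 1 rose and 1 fell, with a median of −0.04, against 30.2% and 28.6% of all tested genes. DNM1L, the mitochondrial fission GTPase gene, rose by 0.30 ± 0.08 and the channel gene VDAC1 moved by −0.16 ± 0.06. Both calls ended when single libraries other than panobinostat replicate 4 were left out (edgeR adjusted p from 0.0516 to 0.137). That of DNM1L also ended with no filter (0.0534), and that of VDAC1 with upper-quartile factors (0.0508) or library size only (0.0786). Of 9 turnover and binding partners, 4 rose and 1 fell. DYNLL2, the dynein light chain that holds BMF, rose from 168 ± 3.04 to 283 ± 44.5 CPM (0.75 ± 0.11, edgeR adjusted p = 0.00170), and its relative DYNLL1, which holds BIM, also rose (0.45 ± 0.09). The deubiquitinase gene USP9X, whose product stabilises MCL-1, rose (0.43 ± 0.08), and HUWE1, a ubiquitin ligase gene for MCL-1, fell (−0.61 ± 0.11, from 960 ± 15.1 to 630 ± 114 CPM).

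Of 18 transcription factors known to act on BCL2 family genes, 16 were tested, 4 rose, 8 fell and 4 were not called, with a median of −0.28. Among all tested genes 30.2% were called higher and 28.6% lower. FOXO1 (1.61 ± 0.20, edgeR adjusted p = 0.000921) and FOXO4 (1.14 ± 0.17), of the family that activates BCL2L11, and MYC (0.51 ± 0.08) rose, while FOXO3 was not called (0.09 ± 0.10). STAT5A, an activator of BCL2L1 in other tissues (−1.37 ± 0.29), NFKB1 (−1.35 ± 0.30) and SP1, which binds GC boxes (−0.67 ± 0.13), fell. Testing without the filter on low counts ended the call of NFKB1 (edgeR adjusted p = 0.0966, 1.03e-173 to 0.0966 over its alternatives). Without panobinostat replicate 4 STAT5A and NFKB1 lay at −1.80 and −1.86. These are transcript levels, and no binding was measured.

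**Figure D5:**
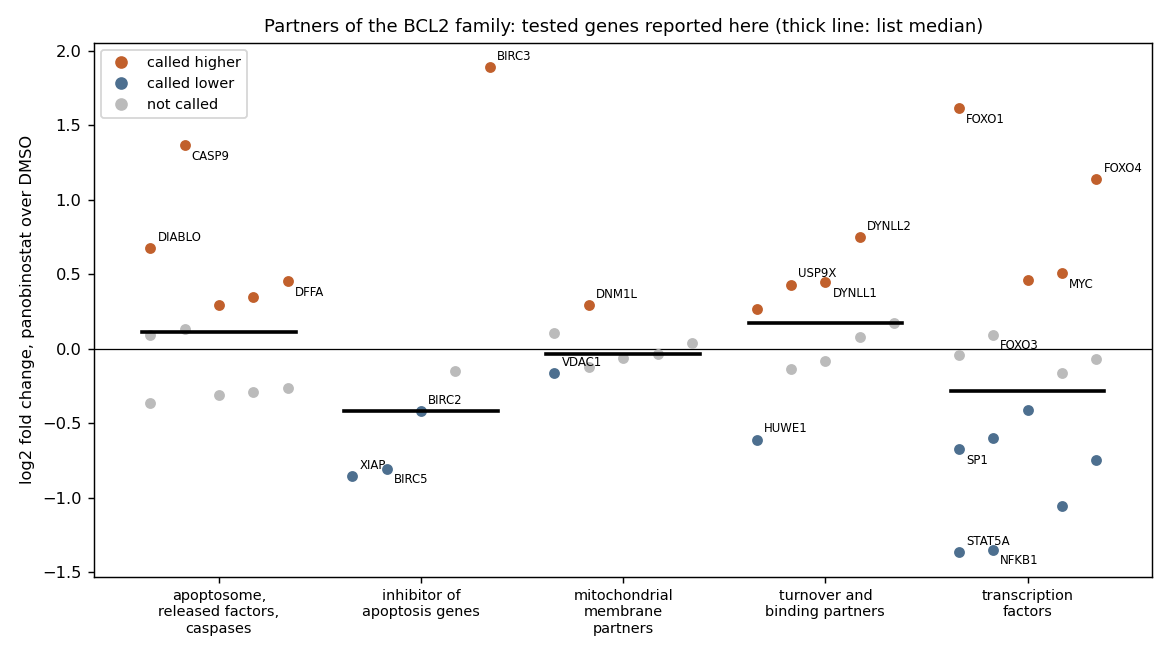
Log2 fold change of the tested genes reported here in the 5 partner lists, coloured by call, with the median of all tested genes of the list as a thick line. BIRC3 is the 1 rise among the inhibitor of apoptosis genes, and the mitochondrial membrane partners stay between −0.16 and 0.30.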

How the data were processed

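A stranded mRNA kit was used for the RNA-seq libraries, per the labels' protocols. The authors deposited raw counts per gene, which the name of the deposited table ascribes to featureCounts. Build GRCh38.p14 and FastQC are named in the submitters' processing notes, while aligner, annotation and strand setting are not given in the sources used. The authors' own comparison is deposited beside the counts: a mean signal, log2 fold changes with SE, a score and p-values, keyed by a separate identifier column that departs from the count rows at line 62, so identifiers were matched. A deposited sum column holds 76184320 counts against 52742848 in the 6 libraries. The further libraries were not analysed here, and 0 other per-sample columns were present.

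Counts were fitted in edgeR 4.0.16 (R 4.3.3; filterByExpr, TMM, robust quasi-likelihood, treatment as the 1 term). SE is the estimate over the root of F. The biological coefficient of variation was 0.112 (0.0283 when panobinostat replicate 4 was left out), and 8519 genes had an unadjusted p under 0.05. Exact tests of 3 against 3 libraries cannot go below 0.1 and were not used. Named were all members, all other family genes with a count, and of each partner list up to 3 called genes a direction at 1 CPM or more, plus a fixed set with BIRC5, XIAP, FOXO3 and SP1. A few genes chosen this way are left out of the text but remain in list counts and medians. The pattern distance used log2(CPM + 0.5). The script was tested on simulated data. Alternatives used DESeq2 1.42.0 and limma 3.58.1 (voom with library quality weights). Members and lists were chosen with earlier results of these data known. Promoters are RefSeq's. Protein sequences were not used here. Counting intervals cover counting error only.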

Additional observations from a re-analysis of the deposited data

How the results depend on the processing

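Of 520 values of the 40 named and tested genes under 13 alternatives, 451 kept direction and side of the threshold, 47 lost the call, 16 gained one and 6 changed sign. All 6 sign changes were of BOK, which was never called: −0.030 with no filter, −0.070 with limma-voom and library quality weights, −0.10 with the replicate block, and from −0.10 to 0.14 when single libraries were left out, where it was below 0 without DMSO replicate 3 (−0.0028), panobinostat replicate 2 (−0.026) or panobinostat replicate 4. Members called higher ran from 3 to 5 and lower from 2 to 4 over leaving out each library in turn, highest without panobinostat replicate 4 in both. Across all genes the same range was 3105 to 5024 higher and 2660 to 4969 lower. The replicate block, whose changes rest on replicates 1 and 2 of each group only, gave 5 members higher and 4 lower, and 5031 and 4950 genes. Replicates 1 and 2 share their numbers between groups, and the main fit did not take the numbers as pairs. Their deviations from the group means correlated at 0.0514 and 0.00807, against −0.0628 to 0.033 for libraries of different numbers. The panobinostat mean includes replicate 4, which stood apart, so these correlations cannot exclude pairing. Scaling and filter moved the median of all tested genes by less than 0.1 (0.0329 with library size only, −0.0528 with no filter) and turned no member. All these scalings are relative, so the medians cannot show a shift common to most genes. BMF and BCL2A1 are limited by depth, with 54 and 101 counts in DMSO.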

Other observations

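The authors' deposited table gives its own log2 fold changes for these genes. Which libraries entered them was not checked here, and the deposited sum column holds more counts than the 6 libraries. It lists BMF at 2.23 ± 0.39, BCL2L11 at 0.72 ± 0.21, BAK1 at 0.85 ± 0.13 and BCL2A1 at 0.64 ± 0.28. The authors' deposited table lists BID at −0.79 ± 0.18, BCL2L1 at −0.68 ± 0.16, BCL2 at −0.56 ± 0.20 and BAX at −0.20 ± 0.08. In the authors' deposited table MCL1 (0.05 ± 0.04, adjusted p = 0.337) and BBC3 (−0.28 ± 0.21, adjusted p = 0.295) are above an adjusted p of 0.05, while BAX is under it (0.0398). Of the other family genes called here, PMAIP1 is above it there (0.19 ± 0.10, adjusted p = 0.117), and BCL2L2, BCL2L12, BCL2L13 and BNIP3L are under it.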
